A study of Mus with 8 samples.

Results

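The comparison described here sets monocytes that carry the Jak2 V617F mutation against control monocytes when both were cultured in elastic gel. It holds 4 of the 8 libraries of the study, chosen by title: 2 libraries of Jak2 V617F cells, titled 8_Jak2_NbTz_6061 and 7_Jak2_NbTz_6065, and 2 of control cells, titled 4_WT_NbTz_6060 and 3_WT_NbTz_6064. The first digit, a running number, is left out of the names from here on. The other 4 libraries carry the same closing numbers and come from a viscous gel, which the titles abbreviate as VLVG. The labels give the mutant cells the genotype Jak2 V617F Vav-iCre and the controls Vav-iCre alone, so the Cre driver is shared by all groups. Monocytes were obtained by negative selection, enclosed in a hydrogel described as an artificial fibrotic matrix, and freed by enzymes before RNA was taken. The strain is C57BL/6, and the age and sex of the mice are not given in the sources used here. Every group was cultured to day 3 with GM-CSF at 100 ng/mL, IL4 at 200 ng/mL and PGE2 at 100 ng/mL. The gel, GM-CSF, IL4 and PGE2 are thus common to both sides of the comparison. The labels do not say whether the closing number stands for a mouse, a pool or a culture. Each p-value thus reflects the scatter among these libraries, part of which may be technical.

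JAK2 is a kinase bound to the inner part of cytokine receptors, among them the receptors for erythropoietin, thrombopoietin and GM-CSF. When a cytokine joins the receptor chains, JAK2 phosphorylates the receptor and the STAT factors, which then enter the nucleus and change transcription. The V617F change lies in the pseudokinase domain, which normally restrains the kinase, and leaves the enzyme active with little or no cytokine. It is the most frequent driver of the myeloproliferative neoplasms, in which blood-forming cells overproduce mature cells and the marrow can scar. Vav-iCre is active in blood-forming cells, and whether other cells of the marrow recombined was not examined here. Monocytes given GM-CSF and IL4 move towards cells that resemble dendritic cells, and GM-CSF itself signals through JAK2. A point mutation does not show in counts per gene, so the labels could not be checked against the altered gene.

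The 4 elastic libraries held 30632355 to 35007587 counts. The files give Ensembl gene IDs with no names, and 0 of the 17640 IDs matched the gene table at hand. Pathway lists, markers of monocytes and of other cell types, and the level of Jak2 itself were therefore not analysed here, and 4 IDs are printed. Of the 17640 IDs, 14785 passed the filter on low counts and were tested. In bulk RNA, a change in the number of cells of 1 kind and a change in RNA per cell cannot be told apart. Each result below is given against each control library, because those 2 libraries differed strongly from each other.

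The smallest p-values were those of 2 IDs that were higher in Jak2 V617F cells. ENSMUSG00000022885 had the smallest p of all 14785 IDs. It stood at 43.8 CPM (counts scaled to the TMM-adjusted library size) in Jak2_NbTz_6065 and at 46.1 CPM in Jak2_NbTz_6061, against 14.8 CPM in WT_NbTz_6064 and 13.0 CPM in WT_NbTz_6060. Both Jak2 V617F libraries were thus far above both controls, and the controls lay close together. Control cells averaged 13.9 ± 1.28 CPM and Jak2 V617F cells 44.9 ± 1.68 CPM (SD, n = 2 each), which is 3.23-fold higher (log2 fold change 1.69, SE 0.14, 95% interval 1.36 to 2.03). On the log2 CPM scale the Jak2 V617F mean was 3.45-fold above WT_NbTz_6060 and 3.03-fold above WT_NbTz_6064, so both controls gave about the same size. With 2 libraries a side, edgeR's quasi-likelihood test did not call it (adjusted p = 0.138), while DESeq2 did (adjusted p = 3.55e-17). In 18 alternative settings its adjusted p ranged from 3.55e-17 to 1.

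ENSMUSG00000062783 came next among the higher IDs. It stood at 54.1 CPM in Jak2_NbTz_6065 and at 36.6 CPM in Jak2_NbTz_6061, against 12.6 CPM in WT_NbTz_6064 and 11.7 CPM in WT_NbTz_6060. Here the Jak2 V617F libraries differed from each other more than the controls did, yet the lower of them was still well above both controls. The Jak2 V617F mean was 45.3 ± 12.4 CPM and the control mean 12.1 ± 0.63 CPM (SD, n = 2 each), 3.74-fold higher in the mutant (log2 fold change 1.90, SE 0.21, 95% interval 1.41 to 2.40). The Jak2 V617F mean was 1.93 log2 units above WT_NbTz_6060 and 1.82 above WT_NbTz_6064, so both controls gave a similar size. The edgeR adjusted p was 0.392 and the DESeq2 adjusted p was 1.39e-10, within a range of 1.39e-10 to 1 over 18 alternatives.

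The 2 lower IDs with the smallest p had wider controls. ENSMUSG00000020053 stood at 19.9 CPM in Jak2_NbTz_6065 and 18.4 CPM in Jak2_NbTz_6061, against 49.1 CPM in WT_NbTz_6064 and 90.9 CPM in WT_NbTz_6060. The groups did not overlap, but WT_NbTz_6060 stood well above WT_NbTz_6064. Control cells averaged 70.0 ± 29.6 CPM and Jak2 V617F cells 19.2 ± 1.06 CPM (SD, n = 2 each), which is 3.65-fold lower (log2 fold change −1.87, SE 0.28, 95% interval −2.55 to −1.19). The size depended on the control: 4.73-fold lower against WT_NbTz_6060 and 2.56-fold lower against WT_NbTz_6064. The edgeR adjusted p was 0.937, and it was 0.0599 with WT_NbTz_6064 left out and 1 with WT_NbTz_6060 left out. The DESeq2 adjusted p was 1.52e-05, and over 18 alternatives the adjusted p ran from 1.05e-20 to 1.

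ENSMUSG00000089809 stood at 7.52 CPM in Jak2_NbTz_6065 and 9.14 CPM in Jak2_NbTz_6061, against 18.7 CPM in WT_NbTz_6064 and 28.5 CPM in WT_NbTz_6060. Control WT_NbTz_6060 was again the farther of the controls. The Jak2 V617F mean was 8.33 ± 1.15 CPM and the control mean 23.6 ± 6.93 CPM (SD, n = 2 each), 2.83-fold lower in the mutant (log2 fold change −1.50, SE 0.25, 95% interval −2.10 to −0.91). The Jak2 V617F mean was 3.42-fold below WT_NbTz_6060 and 2.25-fold below WT_NbTz_6064. The edgeR adjusted p was 0.937 and the DESeq2 adjusted p was 0.000839, with a range of 1.44e-06 to 1 over 18 alternatives. The DESeq2 call was lost without WT_NbTz_6060 (adjusted p = 0.114).

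**Figure D1:**
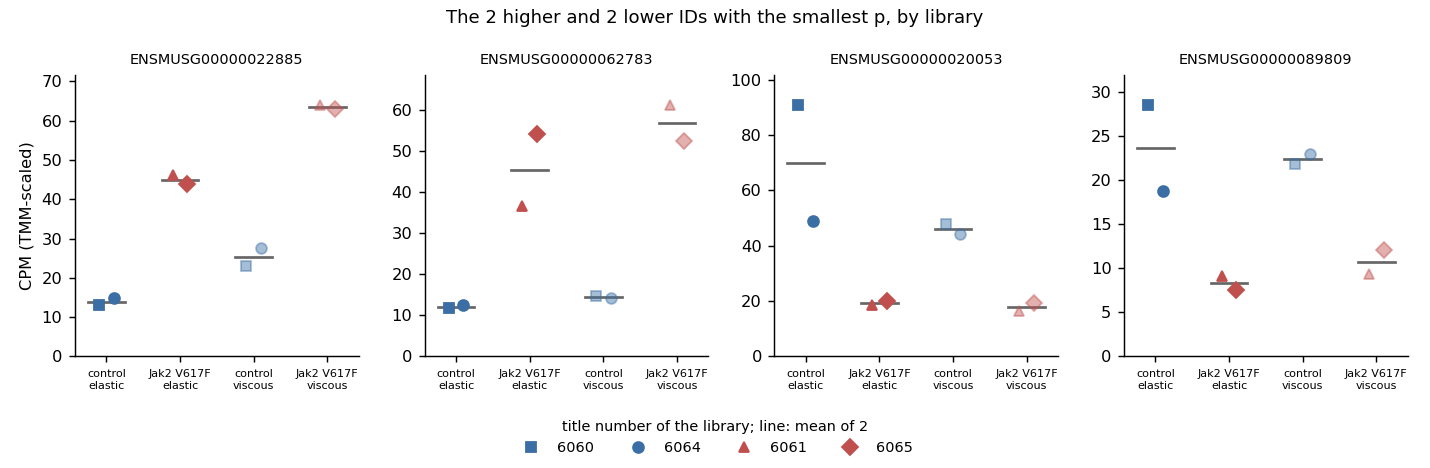
CPM (vertical axes, from 0) of the 4 IDs in each of the 8 libraries, with marker shapes for the closing number of the title, blue for control and red for Jak2 V617F cells, paler markers for viscous gel and a line at the mean of each pair. In elastic gel the 2 Jak2 V617F libraries lie on 1 side of both controls in all 4 panels, and for the lower IDs WT_NbTz_6060 (90.9 and 28.5 CPM) stands well above WT_NbTz_6064 (49.1 and 18.7 CPM).

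The elastic controls were farther from each other than either Jak2 V617F library was from WT_NbTz_6064. The root mean square difference of log2 CPM over the 14785 IDs was 0.97 between the controls WT_NbTz_6060 and WT_NbTz_6064, and 17.6% of IDs were at least 1 log2 unit apart. Between the Jak2 V617F libraries the difference was 0.56, with 4.80% of IDs that far apart. Control WT_NbTz_6064 lay at 0.60 from Jak2_NbTz_6065 and at 0.60 from Jak2_NbTz_6061, close to the distance between the mutant replicates. Control WT_NbTz_6060 lay at 1.03 and 1.00. The order was the same when only the 11633 IDs averaging 50 counts or more were used: 0.81 between the controls, 0.36 between the mutants, 0.38 and 0.40 from WT_NbTz_6064, and 0.87 and 0.83 from WT_NbTz_6060.

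The same gap showed in the differences of the Jak2 V617F mean from each control, gene by gene. The middle 50% of IDs fell between −0.35 and 0.29 log2 units against WT_NbTz_6060, and between −0.16 and 0.17 against WT_NbTz_6064. The 5th and 95th percentiles were −1.57 and 1.37 against WT_NbTz_6060 and −0.68 and 0.76 against WT_NbTz_6064. The medians, −0.0073 and −0.0012, were near 0 for both, which the TMM scaling largely fixes. The Jak2 V617F mean enters both differences, so they are not independent of each other.

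A difference was counted as supported by a control library when both Jak2 V617F libraries lay on the same side of it and their mean was at least 0.58 log2 units (1.5-fold) away. By this rule 4510 IDs (30.5%) differed from WT_NbTz_6060, with 2024 higher and 2486 lower in Jak2 V617F cells. Against WT_NbTz_6064 there were 1893 (12.8%), with 1014 higher and 879 lower. Both controls supported the same direction for 867 IDs, which is 19.2% of the first list and 45.8% of the second. Of these, 386 were higher in Jak2 V617F cells (2.61% of IDs tested) and 481 were lower (3.25%). The size depended on the control. For the 386 the median difference was 1.37 log2 units from WT_NbTz_6060 and 1.01 from WT_NbTz_6064. For the 481 it was −1.78 and −0.97, and 79.0% of the 481 lay farther from WT_NbTz_6060. Support from exactly 1 of the controls was far more frequent than support from both.

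Support from WT_NbTz_6060 alone was the most frequent class. It held 1538 IDs that were higher (10.4% of IDs tested) and 1803 that were lower (12.2%) in Jak2 V617F cells. For these the median difference from WT_NbTz_6064 was 0.068 and −0.056 log2 units, against 0.99 and −1.0 from WT_NbTz_6060. Support from WT_NbTz_6064 alone held 426 higher IDs (2.88%) and 298 lower IDs (2.02%). A further 302 IDs (2.04%) lay between the controls, at least 1.5-fold above 1 and below the other. For the remaining 9551 IDs (64.6%) neither control met the rule.

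**Figure D2:**
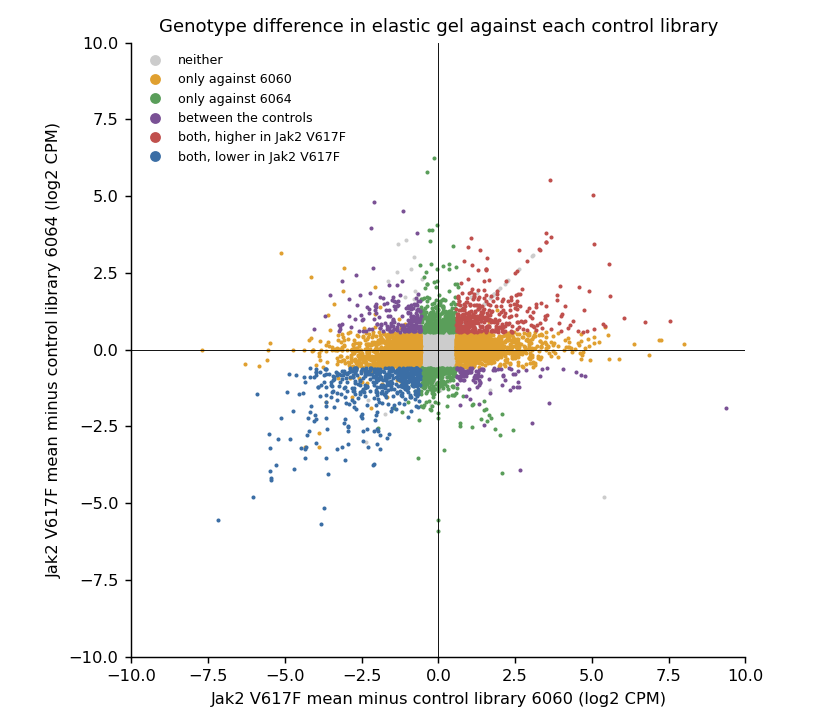
Each point is 1 of 14785 IDs, placed by the mean log2 CPM of the Jak2 V617F libraries in elastic gel minus that of WT_NbTz_6060 (horizontal) and of WT_NbTz_6064 (vertical), and coloured by which control supports a difference. The cloud is wider along the WT_NbTz_6060 axis (percentiles 5 to 95: −1.57 to 1.37) than along the WT_NbTz_6064 axis (−0.68 to 0.76), and the 386 and 481 IDs supported by both lie in the upper right and lower left corners.

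The IDs supported by both controls were mostly expressed at low levels. Below a mean of 1 CPM over the elastic libraries, 175 of 2570 IDs were higher and 290 were lower with the support of both controls, 18.1% together. From 1 to 10 CPM there were 151 and 147 of 3465 IDs, or 8.60%. From 10 to 100 CPM the numbers fell to 43 and 35 of 6562 IDs (1.19%), and at 100 CPM or more to 17 and 9 of 2188 IDs (1.19%). The median SE of the fitted log2 fold change was 0.78 below 1 CPM and 0.18 from 10 to 100 CPM, so the lowest range was measured far less precisely. Support from WT_NbTz_6060 alone did not decline in this way: it took 30.8% of IDs below 1 CPM, 16.6% from 10 to 100 CPM and 22.0% at 100 CPM or more. The excess over support from WT_NbTz_6064 alone (15.7%, 0.99% and 0.55% at those levels) was thus largest, in proportion, among well-expressed IDs.

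**Figure D3:**
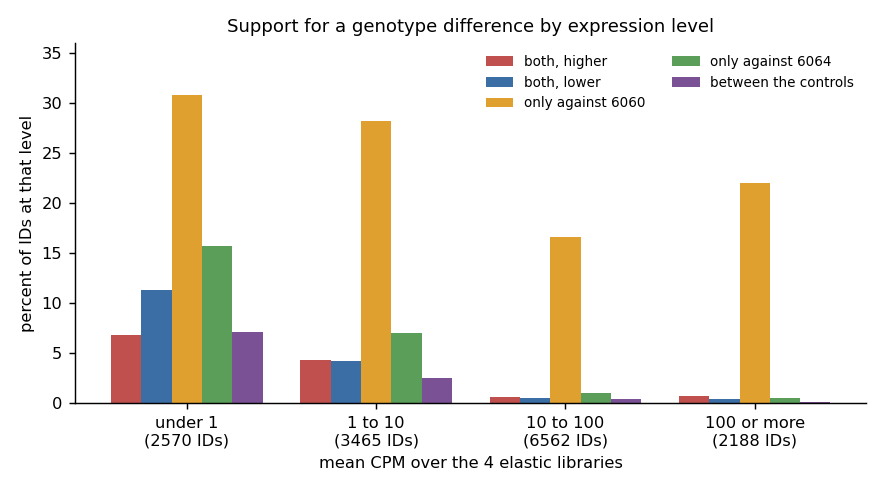
Percent of IDs (vertical axis, from 0) in each class of support, for 4 ranges of mean CPM over the 4 elastic libraries (horizontal axis, with the number of IDs). Support from both controls falls from 18.1% in all below 1 CPM to 1.19% at 100 CPM or more, while support from WT_NbTz_6060 alone is still 22.0% there.

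Among the 8750 IDs with at least 10 CPM, 60 were higher in Jak2 V617F cells against both controls (0.686%) and 44 were lower (0.503%). Fitted against the 2 controls together, the higher IDs had a median fold of 2.30 and a largest fold of 4.10. In the same fit the lower IDs had a median of 2.55 and reached 23.2-fold. The difference was at least 2-fold from each control for 12 of the 60 and 11 of the 44. An unadjusted edgeR p under 0.05 was found for 46 and 29 of them, and 15 and 6 were called by DESeq2. That unadjusted level was reached by 4.07% of all IDs from 10 to 100 CPM and by 3.34% at 100 CPM or more. DESeq2 called 0.176% of all IDs tested as higher and 0.122% as lower. The 60 and 44 IDs were picked on values from the same libraries, so their larger shares follow largely from the rule. ENSMUSG00000022885, ENSMUSG00000062783 and ENSMUSG00000020053 described above belong to this set, and so does ENSMUSG00000089809.

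A small set of IDs was present on 1 side only. Over all 17640 IDs, 17 had at least 10 counts in both elastic controls (10 to 259 counts) and 0 in both elastic Jak2 V617F libraries. The opposite pattern was found for 5 IDs, with 13 to 69 counts in the Jak2 V617F libraries. These patterns were not repeated by the same rule in viscous gel. Of the 17, 7 were at 0 in both viscous Jak2 V617F libraries. Of these 7, 6 were also at 0 in both viscous controls, and 1 had 0 counts in WT_VLVG_6064 and 65 in WT_VLVG_6060. Counted over all 17, 8 were at 0 in both viscous controls. Of the 5, only 1 was at 0 in both viscous controls, and it was at 0 in both viscous Jak2 V617F libraries too. For 6 IDs the counts were confined to the elastic controls, with 10 to 78 counts in both and 0 in the 6 other libraries. Each of the other 3 groups had 1 such ID. IDs that share reads with a near-identical copy would be uncertain here, and could not be singled out without names.

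Across all genes, edgeR called 0 of 14785 IDs at an adjusted p under 0.05 (0%). An unadjusted p under 0.05 was given to 283 IDs that were higher (1.91%) and 371 that were lower (2.51%) in Jak2 V617F cells. Together these 654 IDs are 4.42% of those tested, fewer than the 739 that an unadjusted p under 0.05 gives on average when no ID differs. limma-voom also called 0, with 561 IDs at that unadjusted level. There the balance was the other way round, with 322 higher and 239 lower. DESeq2 called 44: 26 were higher (0.176%) and 18 lower (0.122%). These calls and the rule of support use the same libraries, so they are 2 views of 1 set of values. Of the 44 DESeq2 calls, 43 were supported by both controls (26 higher and 17 lower), and 1, a lower ID, by WT_NbTz_6060 only. Of the 654 IDs at an unadjusted edgeR p under 0.05, both controls supported 153 higher and 191 lower IDs, and WT_NbTz_6060 alone supported 54 and 121. For WT_NbTz_6064 alone the numbers were 21 and 4, and 110 met neither.

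The count of 654 rested on single libraries. It became 309 without WT_NbTz_6060 and 2344 without WT_NbTz_6064, when WT_NbTz_6060 alone stood for control cells. It was 264 without Jak2_NbTz_6061 and 236 without Jak2_NbTz_6065. Without both WT_NbTz_6064 and WT_VLVG_6064, edgeR called 1206 IDs (538 higher and 668 lower). Without both WT_NbTz_6060 and WT_VLVG_6060 it called 0, with 736 at the unadjusted level. Such fits take the spread of the lone control from the other groups. The 1206 calls therefore compare 1 control library with 2 Jak2 V617F libraries, and WT_NbTz_6064 did not enter them.

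**Figure D4:**
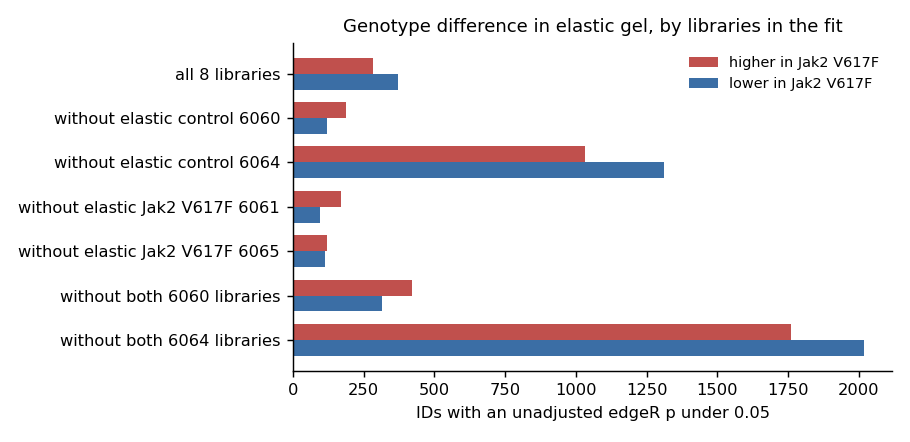
Number of IDs with an unadjusted edgeR p under 0.05 (horizontal axis, from 0) for the genotype comparison in elastic gel, higher (red) or lower (blue) in Jak2 V617F cells, with all 8 libraries or with the named libraries left out. The bars are longest where WT_NbTz_6064 is left out. They are short without WT_NbTz_6060, though not when WT_VLVG_6060 is left out with it, and also short without either elastic Jak2 V617F library.

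Whether a genotype difference was particular to elastic gel was tested as the difference between the elastic and the viscous genotype effect. edgeR called 0 of 14785 IDs (0%), with 254 at an unadjusted p under 0.05. limma-voom called 0 and DESeq2 called 2. For ENSMUSG00000022885 the viscous controls averaged 25.2 ± 3.24 CPM and the viscous mutant libraries 63.5 ± 0.77 CPM (SD, n = 2 each), a log2 fold change of 1.33 (SE 0.14). The elastic effect was larger by 0.36 log2 units, with a 95% interval of −0.096 to 0.82. ENSMUSG00000062783 differed between gels by −0.064 (95% interval −0.74 to 0.61). The lower IDs ENSMUSG00000020053 and ENSMUSG00000089809 had viscous log2 fold changes of −1.37 (SE 0.28) and −1.07 (SE 0.25). Their elastic effects were farther from 0 by −0.50 (95% interval −1.43 to 0.43) and −0.44 (95% interval −1.26 to 0.39). The 4 IDs were picked on their elastic p, so a larger elastic effect is no sign of a difference between gels. All 4 intervals include 0, and at this width they do not show that the gels act alike. In viscous gel the controls of ENSMUSG00000020053 were close together, at 44.4 CPM in WT_VLVG_6064 and 47.8 CPM in WT_VLVG_6060, so the high value of 90.9 CPM was not seen in the viscous library of the same closing number.

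The IDs supported by both controls in elastic gel were then looked up in the viscous libraries. These are other libraries, but they carry the same closing numbers, and what those mark is not given. Deviations of same-numbered control libraries correlated at 0.53 between the gels, so the viscous values are not an independent check. In viscous gel, both controls supported a higher level in Jak2 V617F cells for 459 IDs (3.1% of IDs tested) and a lower level for 699 (4.73%). Among the 386 IDs higher in elastic gel, 108 (28.0%) were supported as higher in viscous gel too and 16 (4.15%) as lower. Among the 481 lower IDs, 168 (34.9%) were supported as lower in viscous gel and 7 (1.46%) as higher. The shared IDs made up 23.5% of the 459 and 24.0% of the 699. In viscous gel a further 100 of the 386 were supported as higher by WT_VLVG_6060 alone and 38 by WT_VLVG_6064 alone. For the 481 these numbers were 120 and 58. Fitted against the 2 controls of each gel together, the median log2 fold change of the 386 was 1.34 in elastic and 0.69 in viscous gel. For the 481 it was −1.63 and −0.89. The IDs were picked on their elastic values, so a smaller viscous median is no sign of a weaker effect. The sign of the log2 fold change was the same in viscous gel for 293 of the 386 (75.9%) and for 396 of the 481 (82.3%), while 48.7% of all IDs tested were higher in viscous gel. Among IDs of at least 10 CPM, 57 of the 60 higher and 41 of the 44 lower ones had the same sign in viscous gel. Both viscous controls supported 25 of the 60 (41.7%) and 20 of the 44 (45.5%), where 1.33% and 0.914% of all IDs at that level had such support, and 0 had support in the opposite direction.

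Genes that change over the cell cycle could be examined without names, because the scran package carries mouse Ensembl IDs that rank cell cycle phases. JAK-STAT signalling drives proliferation in blood-forming cells, which is why this list is shown. Of the IDs that always take the higher place in the G2/M training pairs, 96 were tested. With the support of both controls 2 were higher (2.08%, against 2.61% of all IDs) and 0 were lower (0%, against 3.25%). The shares over all IDs depend on level. They were 6.81% higher and 11.3% lower below 1 CPM, and 0.655% and 0.533% from 10 to 100 CPM. The cell cycle lists were not matched for level. The median log2 fold change of the G2/M IDs was −0.048, against −0.0099 over all IDs. Their summed level was 4901 CPM in Jak2_NbTz_6061 and 4875 CPM in Jak2_NbTz_6065, between the values of WT_NbTz_6060 (4492 CPM) and WT_NbTz_6064 (4977 CPM). For the 154 S-phase IDs, 1 was higher (0.649%) and 1 lower (0.649%), with a median of −0.056. Their summed level was 7032 and 6941 CPM in the mutant libraries, below both controls (7282 CPM in WT_NbTz_6060 and 7178 CPM in WT_NbTz_6064). For the 84 G1 IDs, 0 were higher (0%) and 1 was lower (1.19%), with a median of 0.066. Their summed level was 8562 and 8735 CPM in the mutant libraries, again between WT_NbTz_6060 (7426 CPM) and WT_NbTz_6064 (8805 CPM). The G1 and G2/M sums of the mutant libraries were thus close to WT_NbTz_6064 and above WT_NbTz_6060. A sum follows its most abundant IDs, and for G2/M the medians over IDs went the other way. The median difference from WT_NbTz_6060 was −0.16 log2 units for G2/M, −0.13 for S and 0.13 for G1 IDs. From WT_NbTz_6064 it was 0.0077, −0.023 and −0.037. edgeR and DESeq2 called 0 IDs of the 3 lists; at an unadjusted edgeR p under 0.05 there were 2 higher and 3 lower G2/M IDs, 4 and 7 S-phase IDs, and 2 and 4 G1 IDs. Over all IDs tested that level was reached by 1.91% as higher and 2.51% as lower.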

How the data were processed

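The authors deposited raw whole-number counts for each Ensembl gene ID. The submitters' processing notes name Salmon, DESeq2 and GRCm38, with no order. Gene summing, filtering and strand use are not given in the sources used here. Each of the 8 library files matched its column of the series table. IDs were filtered with filterByExpr and scaled by TMM, and edgeR 4.0.16 (R 4.3.3) fitted 4 group means to all 8 libraries. Calls used a Benjamini-Hochberg adjusted p under 0.05, and tests were two-sided. SE were derived from the test statistic. log2 CPM used a prior count of 2. DESeq2 1.42.0 (287 adjusted p-values undefined and not called) and limma 3.58.1 were alternatives. Cell cycle IDs came from scran 1.30.0 (IDs that are first and never second in a phase's pairs). Figures used matplotlib 3.10.9. The fits were tested on simulated data in which the libraries of a group shared 1 mean per ID. That does not show how the fits behave where 1 control library departs from the other. Replicates differed beyond sampling noise (chi-square divided by its degrees of freedom: 19.1 for the mutant and 262.4 for the control pair). The comparison and its lists were chosen with earlier results of these data known. Of the 4 printed IDs, 2 are the higher and 2 the lower IDs with the smallest p. The 37 gene lists drawn up were not used, since 0 of 49997 reference genes carried an Ensembl ID.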

Additional observations from a re-analysis of the deposited data

How the results depend on the processing

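DESeq2 fits with libraries left out, the ranges of level, the IDs at 0 counts and the cell cycle lists were added after seeing the data. The 0 calls of edgeR held in both other scalings, both other filters, the fit of only the elastic libraries and each elastic library left out, and limma-voom also called 0. DESeq2 called 44 IDs for genotype and 2 for the difference between gels. It called 58 and 8 without both WT_NbTz_6060 and WT_VLVG_6060, 12 and 3 without WT_NbTz_6060, 901 and 7 without WT_NbTz_6064, and 1888 and 33 without both WT_NbTz_6064 and WT_VLVG_6064, where edgeR called 1206 for genotype. IDs at an unadjusted p under 0.05 numbered 236 to 2344 with 1 elastic library left out and 3779 without both WT_NbTz_6064 and WT_VLVG_6064; by DESeq2 there were 309 without WT_NbTz_6060, 2513 without WT_NbTz_6064 and 3159 without both WT_NbTz_6064 and WT_VLVG_6064. Support from both controls held for 148 higher and 196 lower IDs at 1 log2 unit (2080 for WT_NbTz_6060 alone, 380 for WT_NbTz_6064 alone), and for 219 and 216 with at least 50 counts in 2 libraries (325 for WT_NbTz_6064 alone), where fewer IDs are tested. The 386 higher IDs became 477 and 613 with 1 Jak2 V617F library left out, which loosens the rule. Other causes were not tested. The genotypes share no closing number, so none could be a fixed block within 1 gel. With it as a random replicate block (correlation 0.38) limma-voom called 0, with 550 IDs at the unadjusted level (318 higher, 232 lower). Deviations of same-numbered libraries correlated at 0.53 in control and −0.089 in mutant cells. Over IDs averaging 50 counts or more the values were 0.69 and −0.10. The correlation was thus positive in control cells only, and the numbers were not taken as pairs. With the number as a fixed replicate block (added after seeing the data, 2 residual degrees of freedom) edgeR called 0 IDs for the difference between gels, with 531 at the unadjusted level. The intervals of the 4 printed IDs again included 0. edgeR called all 4 printed IDs without both WT_NbTz_6064 and WT_VLVG_6064 (adjusted p 0.00440 to 0.0181). They kept their direction in all 18 alternatives each. They were picked for the smallest p and their elastic groups did not overlap, which nearly fixes the direction.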

Other observations

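The control library WT_VLVG_6060 was looked up for the same classes in viscous gel. Of the 1538 IDs that were higher in Jak2 V617F cells only against WT_NbTz_6060 in elastic gel, 606 (39.4%) were so only against WT_VLVG_6060 in viscous gel, and of the 1803 lower ones 700 (38.8%). Over all IDs tested, those viscous classes held 8.89% and 9.86%. For support from WT_NbTz_6064 alone, 73 of 426 higher IDs (17.1%) and 56 of 298 lower IDs (18.8%) had the matching class with WT_VLVG_6064, where those classes held 4.04% and 3.84% of all IDs. Of the 302 IDs between the elastic controls, 66 (21.9%) also lay between the viscous ones.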
